A study of Mus musculus with 6 samples.

Results

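The cytosolic ribosomal protein genes were followed in RNA-seq counts from whole thyroid glands. Members were the genes whose symbol is Rpl or Rps with a number and at most one letter a, l, x or y, together with Rplp0, Rplp1, Rplp2 and Rpsa. 81 of the 21878 listed genes met this rule, of which 50 encode proteins of the large (60S) subunit or their paralogues and 31 those of the small (40S) subunit. Mitochondrial ribosomal proteins and the ribosomal S6 kinases are not members. The libraries came from female mice aged 12 weeks, with 3 libraries titled control and 3 titled treatment. They were taken as the study's wild-type controls (Thy-Tet1+/+) and thyroid-specific Tet1 knockouts (Thy-Tet1-/-). The genotype labels below stand for this assignment. Knockout mice carried floxed Tet1 alleles and a Cre recombinase that acts in follicular epithelial cells, so the other cells of the gland keep the gene. The controls were wild-type littermates, no agent was given to either group, and the labels name no strain. The series describes 3 mice in each group, and the p-values below measure the spread between these libraries.

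Each cytosolic ribosome is built from a single copy of nearly all of these proteins and from ribosomal RNA. The proteins are therefore needed in matched amounts, and their mRNAs rank among the most abundant in a cell. Most of them begin with a short run of C and T, the terminal oligopyrimidine or TOP motif, through which mTORC1 and the RNA-binding protein LARP1 adjust how strongly they are translated. In the thyroid, follicular cells spend much of their protein synthesis on thyroglobulin, the precursor of thyroid hormone. The genes have also left many processed pseudogenes in the genome, which are near-copies of the mRNA.

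The pyrimidine run is shown here because it is the sequence feature the members share and the rule did not use. Promoter sequences from RefSeq (GRCm38.p6) were found for 61 of the 81 members. Where a gene had several annotated starts, the start with the longest run of C or T was used. This held for members and for all other genes, and it favours long runs. In the 50 bases before and the 50 bases after the annotated start, on the coding strand, a C followed by at least 7 further C or T was present in 52 of 61 members (85.2%) and in 5252 of 16296 genes of the count table with a promoter (32.2%). The longest run of C or T in that window had a median of 10 bases in members and 7 bases over all these genes. A match describes these letters only and is not evidence that the motif is in use. In the following 30-base windows, written 5′ to 3′ on the coding strand, capitals mark that longest run. They cover steady members with long runs, members that varied most between mice, and paralogues or stalk genes with short ones.
Rpl7a (chr2:26910788-26910817, plus strand): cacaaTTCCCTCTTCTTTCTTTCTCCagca
Rpl34 (chr3:130730330-130730359, minus strand): acccgCCCCTTCCTTTTCCTCTTCCgggga
Rpl35a (chr16:33056468-33056497, plus strand): cggggcttgCCTTCCTCTTTCCgccatctt
Rps18 (chr17:33955648-33955677, minus strand): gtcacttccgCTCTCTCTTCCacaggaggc
Rps6 (chr4:86857349-86857378, minus strand): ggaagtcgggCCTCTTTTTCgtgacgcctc
Rps27 (chr3:90213632-90213661, minus strand): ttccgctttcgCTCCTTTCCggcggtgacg
Rps27l (chr9:66946063-66946092, plus strand): actcctctccaCTCCTCCCCgccgcctcta
Rpl3l (chr17:24727846-24727875, plus strand): tggtggggaggCCCCTTCCTaacctgcagg
Rplp0 (chr5:115559466-115559495, plus strand): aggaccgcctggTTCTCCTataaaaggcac
The runs were 21 bases long in Rpl7a and 20 in Rpl34, against 9 in Rpl3l and 7 in Rplp0. The windows of Rpl7a and Rps27l lie inside the genes, which begin at chr2:26910685 and chr9:66944624. So do those of Rpl34, Rpl35a and Rpl3l, whose genes begin at chr3:130730398 (minus strand), chr16:33056453 and chr17:24727826. These runs need not stand at the beginning of the usual mRNA.

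Library totals ranged from 8867683 to 19950898 counts, lowest in control replicate 1, and 3 counts corresponded to 0.150 to 0.338 CPM (counts scaled to a common library size, in units of counts per 1e6). Levels below are CPM with library sizes scaled by TMM (trimmed mean of M values), and each run of 6 values gives control replicates 1, 2 and 3 and then the replicates 1, 2 and 3 labelled Thy-Tet1-/-. The targeted gene Tet1 went against the label, at 5.70, 3.80 and 3.44 CPM in the controls against 9.37, 9.60 and 12.25 CPM in libraries carrying the Thy-Tet1-/- label, a log2 difference of 1.28 (SE 0.27, adjusted p = 0.101 by the quasi-likelihood test of edgeR, adjusted by Benjamini-Hochberg over all tested genes). At the protein level, the study reported less TET1 in thyroids of knockout mice, by immunohistochemistry and western blot. Which part of the transcript the RNA reads cover was not tested. Whether labels had been exchanged was not tested either, and directions below refer to the labels, so that an exchange of the 2 groups would turn each of them. All 11 follicular cell markers were detected in both groups, and their mean log2 level overlapped, at 7.91 to 8.03 in the controls against 7.79 to 7.98 in the other group. Their summed level, most of it from thyroglobulin (Tg), was 257200 to 317400 CPM against 194200 to 240100 CPM. Summed markers of skeletal muscle ran from 55.3 to 7989 CPM, of parathyroid from 89.2 to 12920 CPM and of T and B lymphocytes from 19.5 to 619 CPM over the 6 libraries. In bulk tissue, fewer cells of a type and less RNA per cell cannot be told apart.

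Ribosomal protein genes took a slightly larger part of the counts in the libraries labelled Thy-Tet1-/-. Their share was 2.31%, 2.35% and 2.34% in the controls, a mean of 2.33% ± 0.02 (SD, n = 3). In the other group it was 2.56%, 2.38% and 2.84%, a mean of 2.59% ± 0.23 (SD, n = 3). The groups did not overlap, but replicates 2 of the 2 groups were only a few hundredths of a percent apart. Tg alone took 26.6% ± 2.7 (SD, n = 3) of the counts in the controls and 22.4% ± 1.45 (SD, n = 3) in the other group. With Tg left out of the total, the members' share was 3.18% ± 0.14 against 3.34% ± 0.24 (SD, n = 3 each), and the groups overlapped, at 3.04% to 3.32% against 3.13% to 3.61%.

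Gene by gene, the set stood at the centre of the transcriptome. 79 members had enough counts to be tested. The paralogue Rpl10l had no count in any library, and Rpl39l had at most 0.356 CPM. The median log2 fold change, Thy-Tet1-/- minus Thy-Tet1+/+, was 0.00 over the members (-0.0015, quartiles -0.08 and 0.08) and 0.00 over all 14143 tested genes (quartiles -0.24 and 0.29). 70 of 79 members (88.6%) lay within 0.2 on the log2 scale, against 40.8% of all tested genes. Abundant genes as a group were lower, since the 1787 tested genes with a mean of 100 CPM or more had a median of -0.18. The 60S genes had a median of -0.01, with 19 higher and 29 lower, and the 40S genes a median of 0.03, with 20 higher and 11 lower. Whether the subunits differed was not tested.

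0 of 79 members passed the limits the study used for differentially expressed genes, which 9.2% of all tested genes passed. These limits are a change of more than 1.5 times, up or down, and an unadjusted p below 0.05. Under edgeR's quasi-likelihood test, 0 members had a Benjamini-Hochberg adjusted p under 0.05, against 0.113% of tested genes, and 1 member had an unadjusted p under 0.05. DESeq2's Wald test gave 1 member past the limits, Rpl30, where 10.1% of all tested genes passed. It gave 1 member with an adjusted p under 0.05, Rps14, where 8.43% of all tested genes were. In edgeR, 0 members were higher at the unadjusted limit, where 8.71% of tested genes were, and 1 was lower, where 10.2% were. Groups did not overlap for 2 members that were higher (background 12.5%) and 3 that were lower (background 14.3%). These counts depend on scaling, since a shift common to all genes moves the members with it. With library totals alone the median of all tested genes moved to 0.19 and the members' to 0.19, and with libraries scaled to 10 epithelial genes both moved to 0.49. Under that last scaling, 16 members passed the limits, and 28.7% of all tested genes did.

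**Figure D1:**
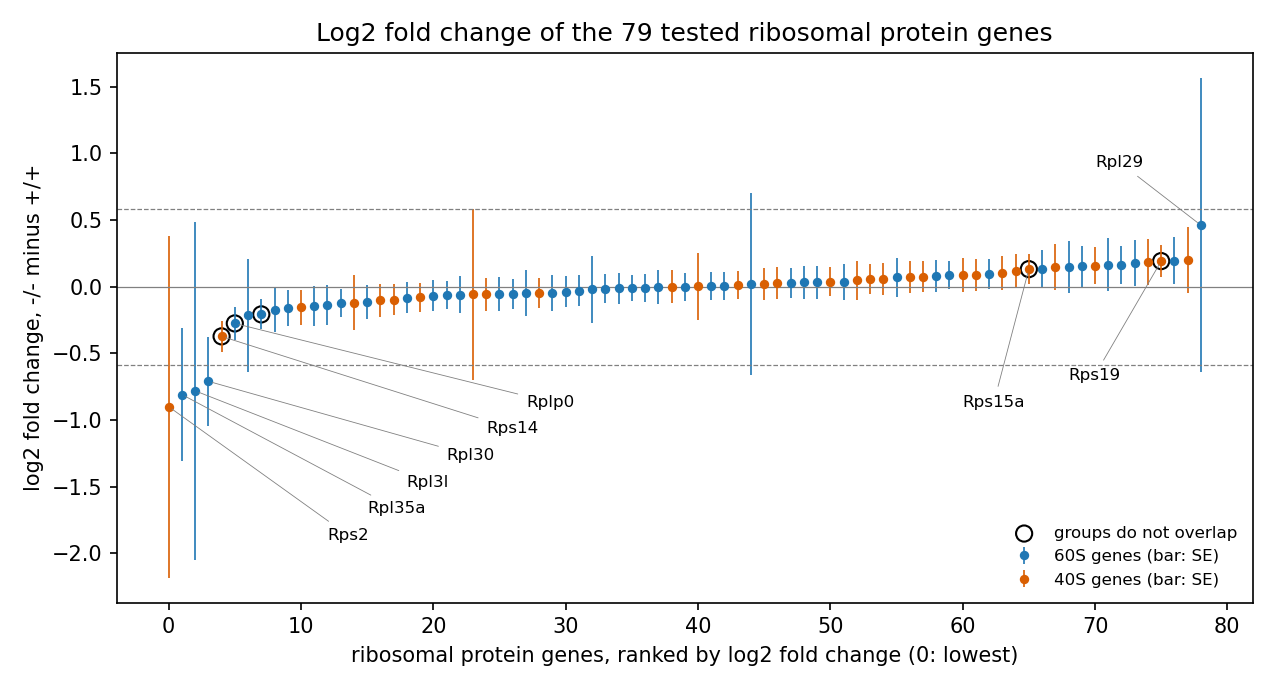
Log2 fold change (Thy-Tet1-/- minus Thy-Tet1+/+, with its standard error) of the 79 tested ribosomal protein genes in ascending order, coloured by subunit. Circles mark the 5 genes whose groups do not overlap, dashed lines stand at a change of 1.5 times in either direction, and the 4 genes below the lower line have long error bars while 70 genes lie within 0.2 of 0.

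The member with the smallest p was Rps14, a 40S protein (NCBI gene 20044, chr18:60774596-60778546, GRCm38.p6). It measured 706, 654 and 652 CPM in the controls and 541, 491 and 522 CPM under the Thy-Tet1-/- label. All 3 control values lay above all 3 of the other group. The log2 fold change was -0.37 (SE 0.12), with an unadjusted p of 0.0151 and an adjusted p of 0.169 in edgeR's quasi-likelihood test. The adjusted p was 0.00553 with DESeq2, where 8.43% of all tested genes were under 0.05. Under the other 17 alternatives it was 0.144 to 0.698. The fitted fold change was negative in each of them except the scaling to epithelial genes, where it was 0.10 beside a median of all genes of 0.49. Relative to that median it was -0.33 to -0.48 under the 18 alternatives. Those that only rescale libraries move Rps14 and the median together. As its groups did not overlap, leaving out 1 library left little room for a change of sign. Rps14 was also among the 3 members with the highest level per length.

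The ribosomal stalk, which recruits elongation factors to the 60S subunit, is formed by Rplp0 at its base and by Rplp1 and Rplp2. Rplp0 measured 819, 735 and 702 CPM and then 597, 621 and 645 CPM, so that its groups did not overlap, with a log2 fold change of -0.28 (SE 0.12, edgeR adjusted p = 0.282). Its partners did not share this order. Rplp1 averaged 453 ± 75.6 CPM in the controls and 412 ± 10.7 CPM in the other group (SD, n = 3 each), and Rplp2 averaged 191 ± 10.1 against 202 ± 8.01 CPM.

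The 2 members that were higher without overlap both belong to the 40S subunit. Rps19, whose human counterpart is mutated in Diamond-Blackfan anaemia, measured 295, 353 and 346 CPM and then 380, 368 and 387 CPM. Its log2 fold change was 0.19 (SE 0.12, edgeR adjusted p = 0.445), and without control replicate 1, its lowest library, the difference from the median was 0.11. Rps15a measured 184, 196 and 196 CPM and then 197, 205 and 230 CPM, so that the nearest values of the groups were almost equal. Its log2 fold change was 0.13 (SE 0.11, edgeR adjusted p = 0.575).

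Other members at the upper end were set by 1 control library. Rps27, Rpl21, Rps21, Rpl39, Rpl36 and Rpl9 had log2 fold changes of 0.20, 0.19, 0.19, 0.18, 0.16 and 0.16, and edgeR adjusted p-values from 0.576 to 0.710. In each of the 6 the lowest library was control replicate 1. Rpl9 showed it most plainly, at 263 CPM there and 385 to 431 CPM in the other 5 libraries. Without that library, the differences of Rps27 and Rpl9 from the median of all genes were -0.02 and -0.03. Rpl32l, at a mean of 1.20 CPM, was at the lower end with a log2 fold change of -0.21 (SE 0.42).

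Members central to ribosome function had overlapping groups. Rps6, the substrate of the S6 kinases below mTORC1, measured 321, 351 and 335 CPM and then 328, 361 and 359 CPM. Rpl3, which reaches towards the peptidyl transferase centre, averaged 541 ± 193 CPM in the controls, where replicate 1 stood at 764 CPM, and 532 ± 42.0 CPM in the other group (SD, n = 3 each). Rpl10, one of the last proteins to join the 60S subunit, averaged 543 ± 60.4 against 521 ± 37.7 CPM. For Rpsa, known also as the laminin receptor, the means were 542 ± 62.7 and 486 ± 17.9 CPM. The X-linked Rps4x averaged 481 ± 29.6 against 489 ± 31.7 CPM, and the RNA-binding Rpl22 averaged 227 ± 9.37 against 231 ± 16.6 CPM. Within each of these genes the 2 groups shared part of their range. The steadiest member of all was Rpl23a, picked after its values were seen, at 223 to 228 CPM in the 6 libraries.

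Per kilobase of the annotated transcript, the highest levels were those of Rpl41, the shortest ribosomal protein, at 1172 CPM per kb, Rps14 at 995 CPM per kb and Rplp1 at 866 CPM per kb. The lowest were Rpl10l at 0, Rpl39l at 0.131 CPM per kb and Rpl32l at 3.00 CPM per kb. These are levels per length of 1 annotated transcript per gene, and some of these transcripts are longer than the usual mRNA, as for Rps15a at 5179 bases, which lowers the value. Rpl10l and Rpl39l are paralogues known from testis, and their parents Rpl10 and Rpl39 stood at 666 and 300.3 CPM per kb. Rps4l was not analysed here.

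Members varied less from mouse to mouse than other genes. Over the 6 libraries, and without regard to group, the median coefficient of variation was 8.33% for the 78 members with a mean of 10 CPM or more and 16.7% for the 9944 tested genes at that level. The highest library exceeded the lowest by more than 2 times in 8 of 78 members (10.3%), against 21.8% of those genes. The 8 were Rpl3l, Rps2, Rpl29, Rpl34, Rps18, Rpl35a, Rpl30 and Rps27l. Just inside this limit stood Rps27l with a ratio of 2.06, and just outside it Rps27 with 1.93. These genes were singled out by their spread over the 6 libraries, so the values that follow are a description.

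**Figure D2:**
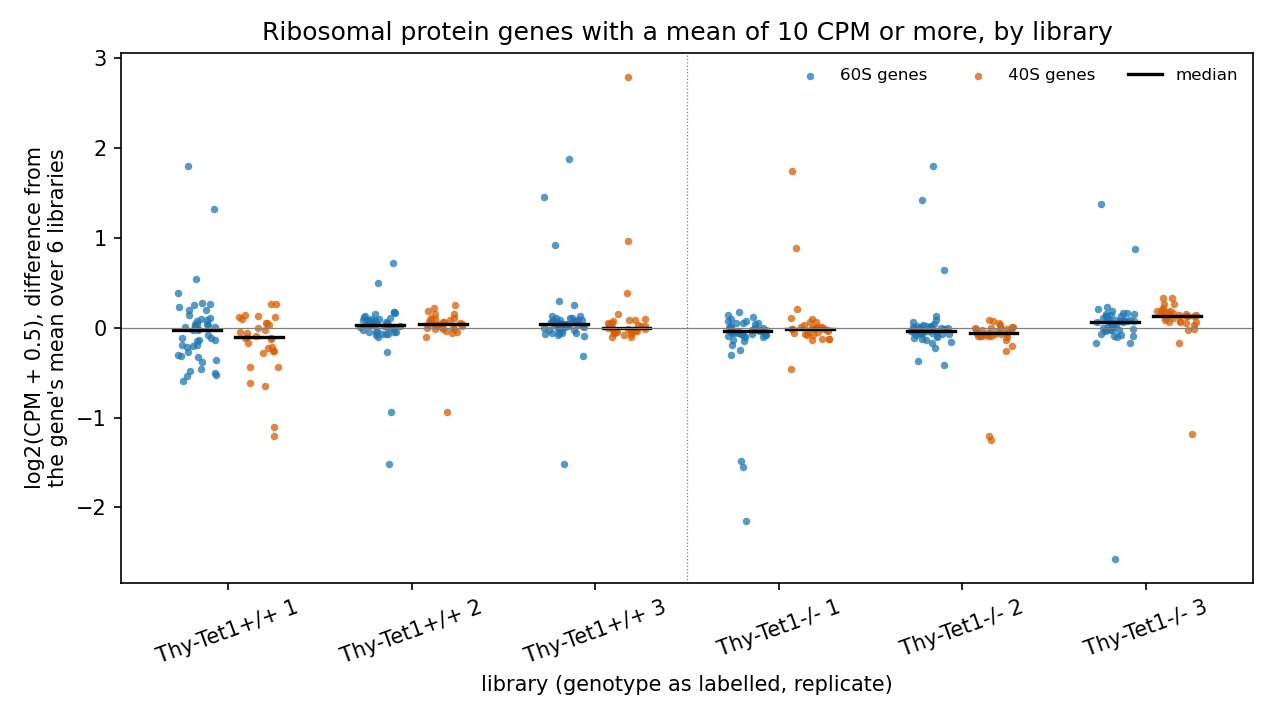
Each point is 1 of the 78 ribosomal protein genes with a mean of 10 CPM or more, placed by library (x axis) and by its log2(CPM + 0.5) minus its mean over the 6 libraries (y axis), with 60S and 40S genes side by side and their medians as bars. Most points lie close to 0 in every library, control replicate 1 has a wider cloud (interquartile range 0.359 against 0.0849 to 0.141 in the other 5), and the few points far from 0 belong to the 8 variable members.

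Several of the 8 took levels far apart, and not by genotype. Rps2, a 40S protein at the mRNA entry side, measured 26.8, 32.2 and 434 CPM in the controls and 210, 26.8 and 27.1 CPM in the other group. Thus 4 libraries lay between 26.8 and 32.2 CPM and 1 library of each group lay far above them. Rpl29, a 60S protein, was at 95.4, 9.14 and 9.15 CPM and then 8.93, 73.5 and 71.5 CPM. It too divided, into 3 libraries near 9 CPM and 3 above 71 CPM. Both libraries with high Rps2 were among those with low Rpl29. Their log2 fold changes of -0.90 (SE 1.28) and 0.46 (SE 1.10), the extremes among the members, had edgeR adjusted p-values of 0.751 and 0.866. Without control replicate 3 the difference for Rps2 became 1.56 relative to the median of all genes, and without control replicate 2 or 3 that for Rpl29 became -0.02 or -0.03.

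Rpl35a and Rpl30 had their highest level in control replicate 3. Rpl35a stood at 126 CPM in control replicate 3 and at 30.02 to 43.5 CPM in the other 5 libraries (log2 fold change -0.81, SE 0.50, edgeR adjusted p = 0.428), and without that library its difference from the median was 0.03. Rpl30, whose protein sits where the subunits meet, measured 82.7, 169 and 227 CPM and then 96.7, 89.5 and 106 CPM. Its groups overlapped through control replicate 1, while the other 2 controls lay above the whole other group. The log2 fold change was -0.71 (SE 0.34), with an edgeR adjusted p of 0.310, and the difference from the median was -0.38 without control replicate 3 and -1.03 without control replicate 1. With control replicate 1 left out, Rpl30, Rpl35a and Rpl29 passed the fold and p limits, which 10% of all tested genes passed there.

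The paralogues differed from their parents. Rpl3l, the form of Rpl3 made in striated muscle, measured 16.7, 3.10 and 24.9 CPM and then 1.96, 23.4 and 0.660 CPM, a log2 fold change of -0.78 (SE 1.27, edgeR adjusted p = 0.787). Its 3 high libraries were those in which the 10 skeletal muscle markers summed to 7313, 4483 and 7989 CPM, and its low ones those with 900, 143 and 55.3 CPM. The part of muscle in this result was not tested further, apart from a fit with a muscle score, in which the difference was 0.16 relative to the median. Rps27l, a paralogue of Rps27 known as a p53 target, measured 35.4, 62.1 and 73.0 CPM and then 59.4, 55.0 and 56.8 CPM. Its lowest library was again control replicate 1.

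**Figure D3:**
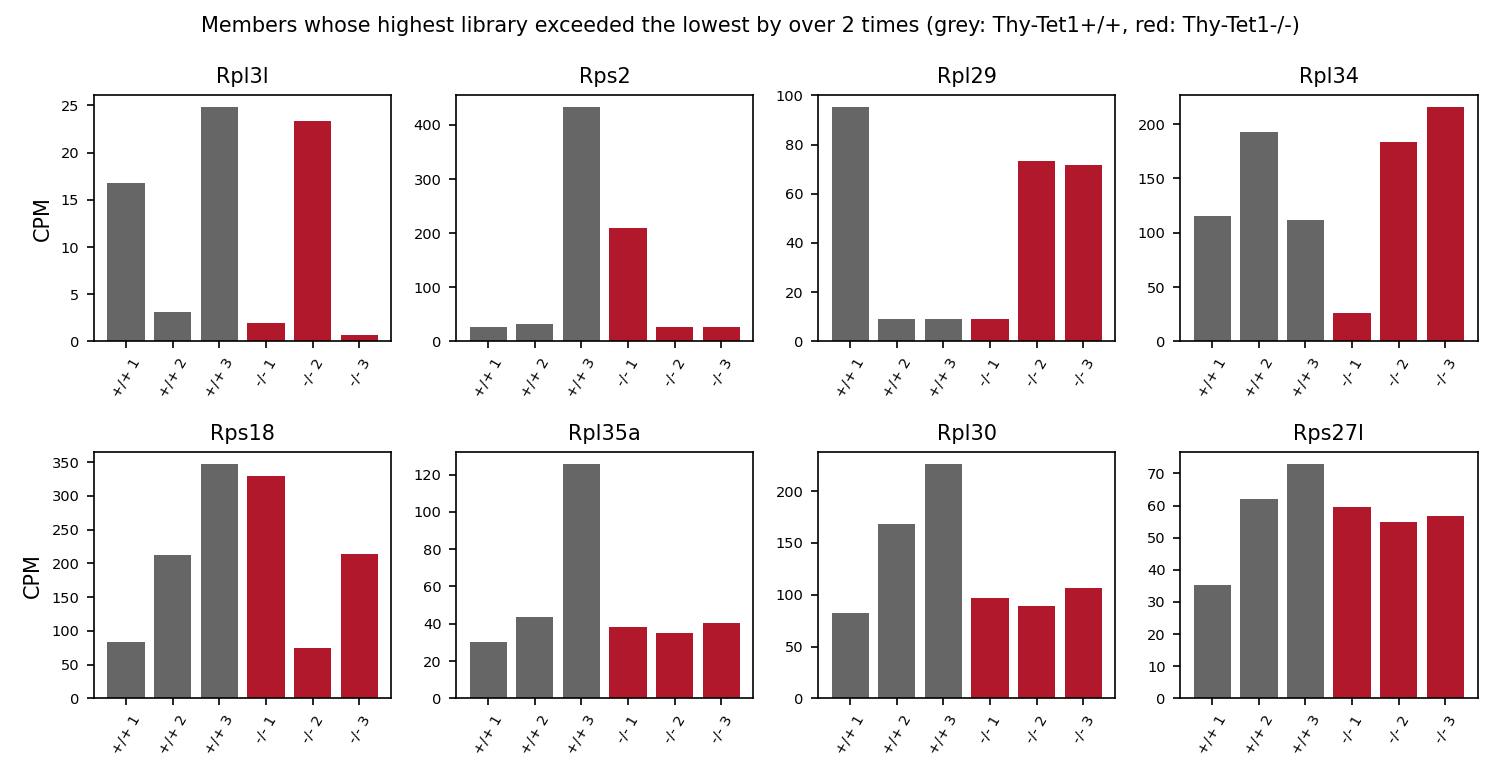
CPM in each library (bars; grey for Thy-Tet1+/+ and red for Thy-Tet1-/-, replicates 1 to 3) of the 8 ribosomal protein genes whose highest library exceeded the lowest by more than 2 times, each on its own linear axis from 0. High and low bars occur in both groups for Rpl3l, Rps2, Rpl29, Rpl34 and Rps18, while Rpl35a has 1 high control.

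Rpl34 and a listed copy of it varied in opposite directions. Rpl34 measured 115, 192 and 112 CPM and then 26.0, 183 and 216 CPM, lowest by far in the replicate 1 labelled Thy-Tet1-/-. The processed pseudogene Rpl34-ps1 (chr6:71124589-71125001, GRCm38.p6), an intronless copy, measured 70.2, 19.0 and 72.2 CPM and then 118, 17.8 and 17.1 CPM, highest where Rpl34 was lowest. Its counts were 61.1%, 9.86% and 64.3% of those of Rpl34 in the controls and 452%, 9.70% and 7.90% in the other group. The sum of the 2 genes differed by 1.62 times between the highest and lowest library, against 8.29 times for Rpl34 alone, was still lowest in the replicate 1 labelled Thy-Tet1-/- (144 CPM against 184 to 233 CPM), and averaged 194 ± 15.4 CPM in the controls and 193 ± 45.2 CPM in the other group (SD, n = 3 each).

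Over the 354 bases of the annotated Rpl34-ps1 transcript, the copy differed from the GENCODE M21 transcript of Rpl34 at 2 positions, T358C and C544G, counted from 1 at the 5′ end of that Rpl34 transcript and with the base of Rpl34 first. The stretch around the first of them, bases 343 to 372, is shown because within the shared part only such a base separates the 2 sequences; the capital marks it.
Rpl34: gaaagcacctaaatcTgcatgtggcgtgtg
Rpl34-ps1: gaaagcacctaaatcCgcatgtggcgtgtg
The annotated Rpl34 transcript is 624 bases long, and 30.5% of its 75-base stretches had an exact match in another gene, so part of the split of reads between the 2 genes is uncertain. The log2 fold change of Rpl34 was 0.02 (SE 0.68). Other listed copies behaved steadily. Rps27rt had 2.79% to 3.98% of the counts of Rps27 and Rpl37rt 8.76% to 11.3% of those of Rpl37, in all 6 libraries.

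Sequence shared with copies was common among the members, variable or not. In the annotated transcripts, a 75-base stretch with an exact match in another annotated gene made up a median of 36.9% of all such stretches in the 8 variable members and 41.8% in the other 70. At least 1 pseudogene shared a stretch with 7 of the 8 and with 67 of the 70. The median number of such pseudogenes was higher in the 8, at 9.5 (range 0 to 50) against 5.0 (range 0 to 64) in the 70. Rps2 shared 71.1% of its stretches, with 50 pseudogenes, and Rpl29 56.8%, with 42. Among members with little spread, Rpl23a shared 81.7% with 16 pseudogenes and Rpl7a 77.4% with 64, and their coefficients of variation were 0.762% and 4.91%. How the counting treated reads that match several places is not given in the sources used here, so the levels of these members are uncertain.

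Rps18 lies at chr17:33951998-33955665, within the major histocompatibility complex, and varied together with genes around it. It measured 82.9, 212 and 348 CPM and then 329, 74.9 and 214 CPM, so that control replicate 1 and the replicate 2 labelled Thy-Tet1-/- were the lowest. Its log2 fold change was -0.06 (SE 0.64). The same 2 libraries were the lowest for 37 of the 102 genes within 1.5 Mb with a mean of 2 CPM or more (36.3%), against 6.28% of all such genes. H2-Eb1, a class II histocompatibility gene 354 kb away, stood at 1.54 and 1.30 CPM in those 2 libraries and at 58.3 to 112 CPM in the other 4, and H2-K1, a class I gene 44.0 kb away, at 293 and 246 CPM against 405 to 1061 CPM. D17H6S56E-5, at a distance of 1045 kb, stood at 3.68 and 4.03 CPM against 92.3 to 143 CPM. Summed macrophage markers were also lowest in those 2 libraries, at 112 and 195 CPM against 209 to 503 CPM in the other 4, and their part was not tested. Neighbouring genes are not independent, the pattern around Rps18 was chosen after its values were seen, and its cause was not tested.

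The same count was made around Rps2 and Rpl29. Control replicate 3 and the replicate 1 labelled Thy-Tet1-/- were the highest libraries for 16 of the 94 genes within 1.5 Mb of Rps2 (17%, against 4.94% of all such genes). Around Rpl29, its 3 low libraries were the lowest for 1 of 46 genes (2.17%, against 4.44%).

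**Figure D4:**
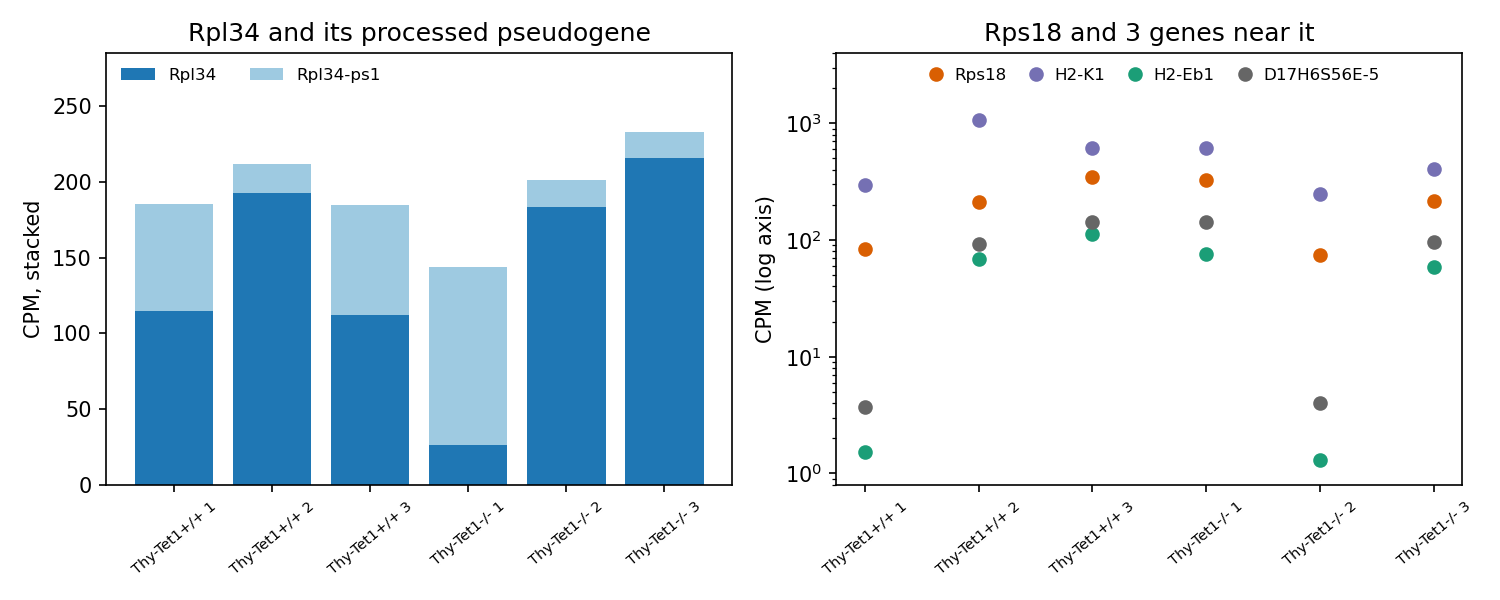
Left, CPM of Rpl34 and its processed pseudogene Rpl34-ps1 stacked by library on a linear axis from 0; the stacks reach 144 to 233 CPM although Rpl34 alone runs from 26.0 to 216 CPM. Right, CPM on a log axis of Rps18 and 3 genes within 1.5 Mb of it, by library; all 4 are lowest in Thy-Tet1+/+ replicate 1 and Thy-Tet1-/- replicate 2.

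Control replicate 1, the library with the lowest total, stood apart within the set. It was the lowest of the 6 libraries for 39 of 79 members (49.4%) and the highest for 21 (26.6%), against 23.1% and 23.0% of all tested genes. Its members' levels went with transcript length. Relative to the mean of the other 2 controls, the median log2 ratio was -0.25 for the 21 members with transcripts under 600 bases, -0.16 for the 32 members from 600 to 1000 bases and 0.07 for the 25 members at or above 1000 bases. Over all tested genes at the same level, the medians of those classes were -0.71, -0.42 and 0.05. The 78 members followed the same order with smaller steps. Without the 8 variable members, the medians were -0.10, -0.13 and 0.06, so the shortest class was no longer the lowest. The members at or above 1000 bases remained the highest class. The Spearman correlation of length with the log2 ratio was 0.37 for the 78 members and 0.35 without the 8. RNA quality was not given for any library, and its part in the order by length was not tested.

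The replicate 3 labelled Thy-Tet1-/- was the highest library for 36 of 79 members (45.6%), against 20.4% of all tested genes, and the median of its members stood 0.08 above the mean of the 6 libraries on the log2 scale. It was also the library with the highest summed lymphocyte markers, 619 CPM against 19.5 to 167 CPM in the other 5, and the part of these cells in its members' levels was not tested. Without it, the difference in the members' share of counts was 0.138 percentage points in place of 0.261.

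Lists of genes that build or regulate ribosomes without being members were counted in the same way. In one list of genes for ribosome assembly and rRNA synthesis, 54 of 55 genes were tested and had a median log2 fold change of -0.32, with 45 lower and 9 higher. At the unadjusted limit 18 were lower and 1 higher, where 10.2% and 8.71% of all tested genes were. 4 passed the fold and p limits, all lower, where 518 of all 14143 tested genes passed as lower and 783 as higher. Rrp12, needed to export pre-ribosomal particles, measured 18.3, 11.1 and 18.0 CPM and then 7.25, 9.01 and 5.64 CPM (log2 fold change -1.11, SE 0.28). Bop1, a factor of 60S maturation, had a log2 fold change of -0.75 (SE 0.16), Bysl, which acts on the 40S precursor, one of -0.81 (SE 0.22), and Nolc1, a nucleolar chaperone of snoRNPs, one of -0.67 (SE 0.18). The edgeR adjusted p-values of these 4 were between 0.0988 and 0.136, and the count of 4 became 12 without control replicate 2 and 9 without the replicate 3 labelled Thy-Tet1-/-.

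Counts in this paragraph stand beside 9.2% of all tested genes past the fold and p limits and 10.2% lower at the unadjusted limit. Translation factors and other mRNAs with a TOP motif had a median of -0.16, with 20 of 22 lower. 2 were lower at the unadjusted limit, and 0 passed the fold limit. Most of them had a mean of 100 CPM or more. The 1787 tested genes at that level had a median of -0.18, with 1294 lower, 430 of them at the unadjusted limit. Eif3d, a subunit of initiation factor eIF3, had the smallest p of them, at 128, 93.9 and 107 CPM and then 75.9, 80.6 and 79.8 CPM (log2 fold change -0.48, SE 0.13, edgeR adjusted p = 0.144). Among 9 ribosomal proteins named outside the rule, 0 passed the limits, and the assembly-linked paralogue Rpl7l1 was the 1 gene under the unadjusted limit (log2 fold change -0.36, SE 0.10, edgeR adjusted p = 0.141). The 77 mitochondrial ribosomal protein genes had a median of -0.02, and 0 passed the limits, with 2 lower at the unadjusted limit; without the replicate 1 labelled Thy-Tet1-/- 2 passed. Their lowest was Mrps18b, at -0.56 (SE 0.17, edgeR adjusted p = 0.159).

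Regulators of TOP mRNAs and mTORC1 differed both ways, with 2 of 27 past the limits as higher and 2 as lower, where 9.2% of all tested genes passed in either direction. This count of 4 became 2 without control replicate 1 or without the replicate 3 labelled Thy-Tet1-/-. Rps6kb2, an S6 kinase, measured 8.07, 13.8 and 15.3 CPM and then 25.3, 19.4 and 24.9 CPM (log2 fold change 0.90, SE 0.26). Eef2k, the kinase that inhibits elongation factor eEF2, had a log2 fold change of 0.80 (SE 0.27). The RNA-binding protein gene Larp4b and the GTPase gene Rragd had values of -0.68 (SE 0.20) and -0.69 (SE 0.24). Adjusted p-values in edgeR were 0.15 to 0.20 for these 4. Of 10 p53 targets, which respond when ribosomal proteins are left unassembled, 3 passed the limits as lower. Of all 14143 tested genes, 518 passed as lower. Sesn2, an inhibitor of mTORC1, fell, at 57.3, 55.9 and 40.9 CPM and then 15.7, 19.2 and 16.5 CPM (log2 fold change -1.58, SE 0.17, edgeR adjusted p = 0.0466), although with any single library left out at most 1 gene of the whole table was under that limit. The cell-cycle inhibitor gene Cdkn1a had -2.12 (SE 0.40, edgeR adjusted p = 0.0912) and the nuclease gene Aen -0.77 (SE 0.17, edgeR adjusted p = 0.106). Epithelial markers were lower in the same libraries, at 1873 to 2022 CPM for 10 summed genes against 2491 to 3222 CPM in the controls, and their part in these lists was not tested.

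**Figure D5:**
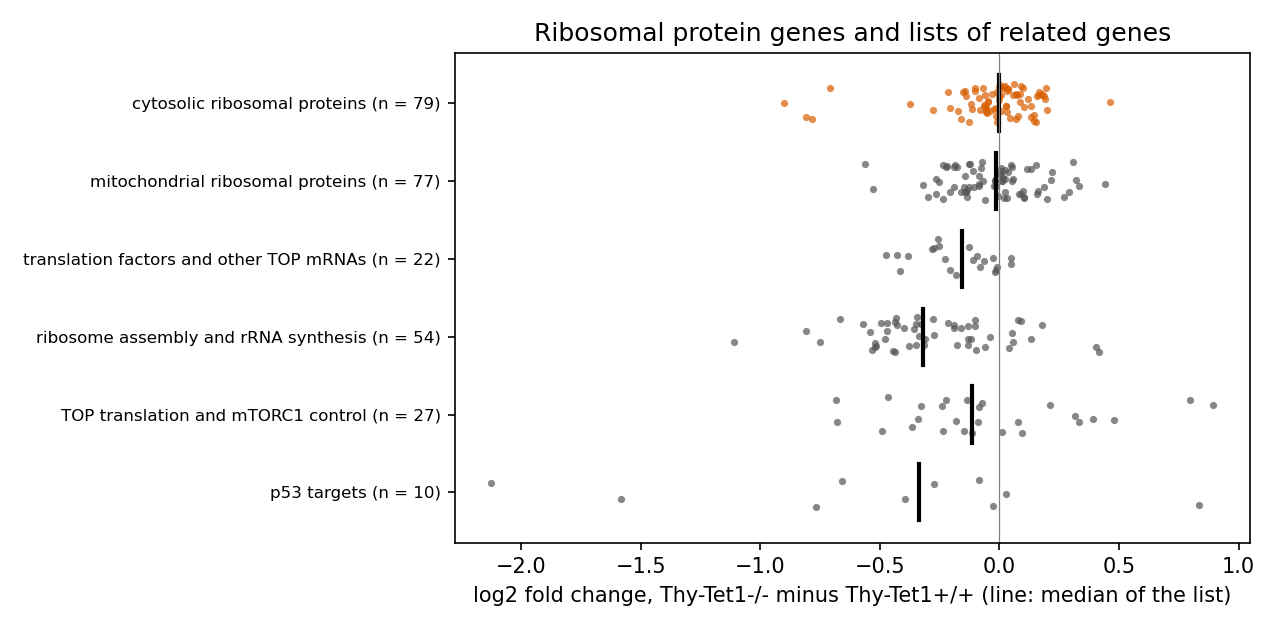
Log2 fold change (x axis) of every tested gene in the ribosomal protein set and in 5 related lists (y axis, number of genes in brackets), with the median of each list as a vertical bar. The medians are 0.00 for cytosolic and -0.02 for mitochondrial ribosomal proteins, and -0.16, -0.32, -0.11 and -0.34 for TOP factors, ribosome assembly, mTORC1 control and p53 targets.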

How the data were processed

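RNA-seq of thyroid glands gave 6 libraries, grouped by their labels. The authors deposited raw counts per gene. The submitters' processing notes name mm10; the aligner, the counting program and its use of strand are not given in the sources used here. The protocol in the labels describes poly(A) selection with a directional kit, names a second kit, and speaks of retinas although the labelled source is thyroid. There were 0 further per-library columns, and 27 symbols stored as dates were restored. Replicates of a group differed by far more than sampling noise.

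edgeR 4.0.16 in R 4.3.3 was applied to the counts. filterByExpr kept 14143 genes, libraries were scaled by TMM, and genotypes were compared by quasi-likelihood (glmQLFTest) with Benjamini-Hochberg adjustment over all tested genes. The common dispersion gave a biological coefficient of variation of 0.327, so the spread between mice limits precision more than depth, and floors of 3 counts cover counting error only. Code was tested on simulated data. Lengths came from 1 GENCODE M21 transcript per gene.

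The members, the lists and the tests were chosen with earlier results of these data known. Named members were the 8 highest and 8 lowest log2 fold changes, any past the limits, the stalk genes, Rpsa, paralogues with their parents, Rps6, Rpl22 and Rpl41, and the 3 highest and 3 lowest levels per kb. The values of 1 member named by this rule are not reported here. Each list gave its genes past the limits, otherwise its smallest p. A list of 8 snoRNA host transcripts had 0 genes in the table. The alternatives were other scalings and filters, DESeq2 1.42.0, limma-voom (limma 3.58.1), a muscle covariate, length and GC offsets, a replicate block, and each library left out.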

Additional observations from a re-analysis of the deposited data

How the results depend on the processing

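In each of the 18 alternatives the members' median stayed within 0.06 of the median of all tested genes on the log2 scale. Alternatives that only rescale libraries move both medians together. Counts and the median moved with scaling. With library totals alone, 3 members were higher (16.9% of all tested genes were) and 0 lower at the unadjusted limit. There 35 had groups that did not overlap, and the median was 0.19 for members and for all genes. With Tg left out of the totals, 0 were lower, 13 did not overlap, and the median was 0.10 for both. No share of all tested genes without overlap was taken under the alternatives, so overlap counts here and in the next paragraph have no background. Scaled to 10 epithelial genes, 16 members passed the limits (28.7% of all tested genes did), 10 had an adjusted p under 0.05 (13.1% of all), 49 were higher (38.1% of all) and 0 lower at the unadjusted limit, 56 did not overlap, the median was 0.49, and Tet1 differed by 1.26 (adjusted p = 0.0326). DESeq2 gave 1 past the limits (10.1% of all tested genes passed), 1 with an adjusted p under 0.05 (8.43% of all), 4 lower, and 1.30 for Tet1 (adjusted p = 0.0012). Over all genes it called 1192 with an adjusted p under 0.05 against 16 in edgeR, and it gave no p for 2 members. Voom gave 2 lower. Offsets for length and GC gave 1 past the limits, Rpl30 (9.4% of all tested genes passed), and a median of -0.0777. With the replicate block added they also gave 1 (8.47% of all) and a median of -0.0682. The cause of these moves was not tested. A muscle covariate turned Rps27 to -0.0573 and Rpl3l to 0.16.

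Leaving out single libraries gave 0 to 3 members past the limits, which 7.48% to 10.4% of all tested genes passed. These were Rpl29, Rpl30 and Rpl35a without control replicate 1 and Rpl3l without the replicate 2 labelled Thy-Tet1-/-. At the unadjusted limit 0 to 2 members were higher, where 5.33% to 9.41% of all tested genes were, and 1 to 3 lower. Between 7 and 20 members were without overlap, which smaller groups make more frequent. The range was -0.04 to 0.02 for the median, 1.13 to 1.51 for Tet1 and 0.138 to 0.367 percentage points for the difference in share. Directions turned within these ranges for Rps27 (-0.0211 to 0.35) and Rpl9 (-0.0331 to 0.29), negative without control replicate 1, for Rpl29 (-0.0262 to 2.48), negative without control replicate 2 or 3, and for Rps2 (-2.62 to 1.56) and Rpl35a (-1.16 to 0.0312), positive without control replicate 3.

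The replicate block left 0 members lower at the unadjusted limit and 0 genes of the table with an adjusted p under 0.05. Same-numbered libraries did not deviate together (r = -0.167, -0.372 and -0.193 across genes), and no library correlated best with its own number, so the numbers were not taken as pairs. The median without the 8 variable members, an alternative added after the data had been seen like the overlap counts above, was 0.00. Rpl10l and Rpl39l had too few counts to be tested.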
